A study of Mus musculus with 9 samples.

Results

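The mRNAs of 10 heat shock and chaperone genes were followed on 9 Affymetrix expression arrays of mouse embryonic stem cells. They were Cryab, Hspb1 and Hspb8 (small heat shock proteins), Hspa1a, Hspa1b and Hspa8 (cytosolic Hsp70 proteins), Hspa5 (the Hsp70 of the endoplasmic reticulum), Hsph1 (Hsp110 family), Hsp90aa1 (Hsp90 family) and Dnajb1 (Hsp40 family). All 10 were found by gene symbol among the 22180 genes that had a probe set of their own. Where several probe sets carried a symbol, the one with the highest mean over the 9 arrays stood for the gene. The probe sets were thus chosen by their mean level, and the genes were named with earlier comparisons of the same arrays known. Levels and counts over the 10 are therefore descriptions, and each adjusted p only places a gene within the fit over all 22180 genes.

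The cells were the Nanog-GFP (NG4) reporter line of 129/Sv origin, grown on gelatin in medium with LIF. They received a lentivirus with a hairpin against Phf5a (shPhf5a, 3 arrays), a hairpin against Paf1 (shPaf1, 3 arrays) or a control hairpin (shControl, 3 arrays). All 3 groups carried a pLKO.1-based vector and were selected with 2 μg/mL puromycin for 72 h. Phf5a is a subunit of the SF3b splicing complex, and Paf1 is part of a complex that travels with elongating RNA polymerase II. The labels name 1 hairpin per group, so that effects of a hairpin on its target and on other transcripts cannot be told apart. They do not say whether replicates were grown or transduced separately, and p-values cover only the spread among the 3 arrays of a group, which may be technical.

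Heat shock proteins hold unfolded proteins and help them to fold. Small heat shock proteins bind unfolding clients without ATP, Hsp70 proteins cycle on and off clients with ATP, Hsp40 proteins deliver clients to Hsp70, and Hsp110 proteins release the nucleotide from Hsp70. Hsp90 proteins finish the folding of kinases and receptors. When unfolded protein accumulates in the cytosol, the transcription factor Hsf1 binds heat shock elements, inverted repeats of the unit nGAAn, and raises Hspa1a, Hspa1b, Dnajb1, Hsph1 and others together. The endoplasmic reticulum has a separate unfolded protein response that raises Hspa5 through other promoter elements. Some small heat shock genes, Cryab among them, are also expressed in differentiated tissues such as lens and muscle without any stress.

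The 9 arrays had medians between 6.22 and 6.31 log2 units over all probe sets. On the shPhf5a arrays Phf5a stood at 34.4% to 55.9% of the control mean, with the highest value in replicate 2, and on the shPaf1 arrays Paf1 stood at 37.7% to 38.9%. Both targets were called lower under the opposite hairpin too: Paf1 differed by -0.25 log2 units in shPhf5a (limma adjusted p = 0.0267) and Phf5a by -0.57 in shPaf1 (adjusted p = 0.0183). Replicate 2 of shPhf5a lay closest of its group to the control mean for 72.1% of the 8306 genes called in shPhf5a. Of 12 stem cell markers 11 exceeded the median level of all genes (6.70 log2 units) in at least 1 group, and their mean level was 10.34 to 10.53 in shPhf5a, 10.15 to 10.18 in shPaf1 and 10.62 to 10.65 in shControl. Of the 12, 2 were higher and 8 lower in shPhf5a (16.7% and 20.7% of all genes). In shPaf1 9 were lower (17.8% of all genes) and 3 were not called. The number of arrays limits the precision of every value.

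The 10 genes did not move as a block. The small heat shock genes Cryab and Hspb8 rose in both knockdowns. The stress-inducible Hsp70 genes Hspa1a and Hspa1b rose in shPaf1 and were lower in shPhf5a than in shPaf1. Hspb1, Hspa5, Hsp90aa1 and Hsph1 did not pass the test in any comparison. In shPhf5a 2 of the 10 were higher and 1 was lower at an adjusted p under 0.05, where 16.7% of all genes were higher and 20.7% lower (37.4% in either direction). In shPaf1 5 were higher and 1 was lower, where 18% of all genes were higher and 17.8% lower (35.8% in either direction). Between the knockdowns 1 gene was higher and 3 were lower in shPhf5a than in shPaf1, where 12.7% and 16.3% of all genes were called (29% in either direction). Each of the 10 had a mean above the median level of all genes (6.70 log2 units), where calls were more frequent. A fit of only the 50% of genes above it called 7193 in shPhf5a, 7002 in shPaf1 and 5753 between the knockdowns. It called 3, 7 and 5 of the 10. The shares of all genes are therefore low as a yardstick for the 10. The arrays of the compared groups did not overlap for 4 of the 10 genes in shPhf5a against shControl (45.8% of all genes), for 7 in shPaf1 against shControl (48.3%) and for 4 in shPhf5a against shPaf1 (37.7%). The median difference of the 10 was 0.00 log2 units in shPhf5a and 0.22 in shPaf1, against -0.03 and -0.01 over all genes. The comparisons with the control share its 3 arrays.

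**Figure D1:**
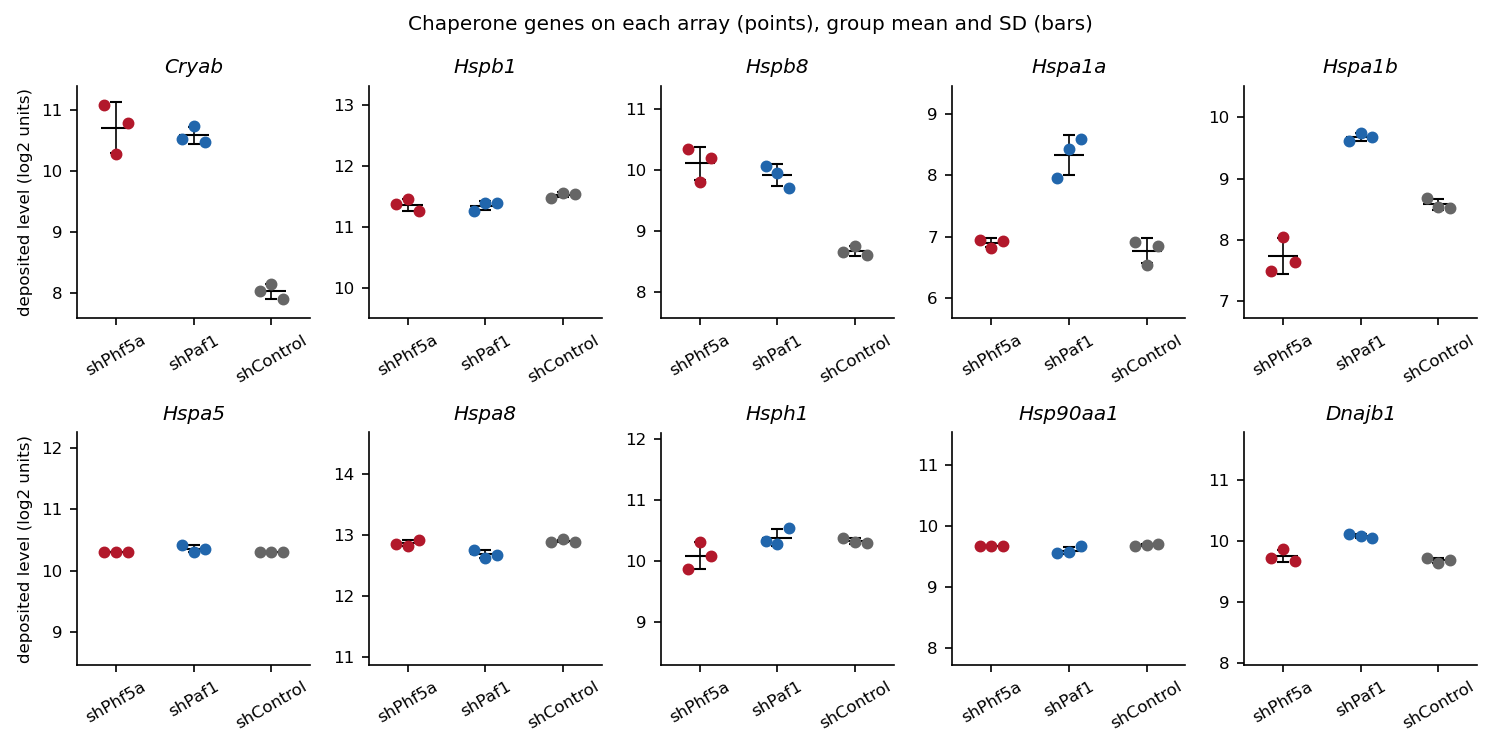
Level of each gene in deposited log2 units (vertical axis, the same span in every panel) on the 3 shPhf5a, 3 shPaf1 and 3 shControl arrays; points are arrays from replicate 1 at the left to replicate 3 at the right, and bars are the group mean and SD. Cryab and Hspb8 sit higher in both knockdowns than in the control, whereas Hspa1a and Hspa1b sit high in shPaf1 and Hspa1b sits low in shPhf5a.

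Cryab, which encodes alphaB-crystallin, a small heat shock protein that chaperones intermediate filaments and actin, had levels of 11.08, 10.27 and 10.78 log2 units in shPhf5a replicates 1, 2 and 3, of 10.53, 10.73 and 10.47 in shPaf1, and of 8.03, 8.14 and 7.90 in shControl. Every knockdown array lay more than 2 log2 units above every control array, and the knockdown groups overlapped each other. The group means were 10.71 ± 0.41 in shPhf5a, 10.58 ± 0.14 in shPaf1 and 8.03 ± 0.12 in shControl (SD, n = 3 each). Cryab rose by 2.68 in shPhf5a (SE 0.17, 6.43-fold, limma adjusted p = 5.77e-06) and by 2.55 in shPaf1 (SE 0.17, 5.87-fold, adjusted p = 4.71e-06). The difference between the knockdowns was 0.13 with a 95% interval from -0.26 to 0.52 (limma adjusted p = 0.662). With replicate 2 of shPhf5a left out, it was 0.35 and passed (adjusted p = 0.0373), as did the mean over the probe sets of Cryab (0.49, adjusted p = 0.0425). In bulk RNA, a change in the number of cells that express a gene and a change of its RNA per cell cannot be told apart.

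Hspb8, a small heat shock protein that works with Bag3 in the removal of damaged proteins, had levels of 10.34, 9.81 and 10.19 in shPhf5a, of 10.06, 9.95 and 9.71 in shPaf1, and of 8.66, 8.76 and 8.61 in shControl. Again no knockdown array came near a control array, and the knockdown groups overlapped. Hspb8 rose by 1.44 in shPhf5a (SE 0.13, 2.71-fold, limma adjusted p = 3.38e-05) and by 1.23 in shPaf1 (SE 0.13, 2.35-fold, adjusted p = 6.07e-05). The difference between the knockdowns was 0.21 with a 95% interval from -0.08 to 0.50 (limma adjusted p = 0.301). Leaving out replicate 2 of shPhf5a gave 0.36 (adjusted p = 0.0218).

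Hspb1 encodes Hsp27, the small heat shock protein that binds actin filaments. It had levels of 11.37, 11.46 and 11.26 in shPhf5a, of 11.27, 11.40 and 11.39 in shPaf1, and of 11.48, 11.56 and 11.54 in shControl. All 6 knockdown arrays lay below the 3 control arrays, but by little, and neither difference passed the test (-0.16, SE 0.06, limma adjusted p = 0.0683 in shPhf5a; -0.17, SE 0.06, adjusted p = 0.056 in shPaf1). Those calls depended on the setting. Hspb1 was called lower in shPhf5a in 4 of 18 alternatives and in shPaf1 in 8 of 18. Among them was the mean over its probe sets, which gave -0.28 in shPhf5a (limma adjusted p = 0.00799) and -0.41 in shPaf1 (adjusted p = 0.000822).

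Of the 6 other small heat shock genes measured (Cryaa, Hspb3, Hspb6, Hspb7, Hspb9 and Hspb11), Hspb11, which has a role in ciliary transport, fell by 0.55 in shPaf1 (SE 0.07, limma adjusted p = 0.000155). The other 5 were not called in shPaf1, and all 6 were not called in shPhf5a, where their differences ran from -0.18 to 0.09 with a median of -0.06. With Cryab and Hspb8 2 of the 9 measured genes of the family were higher in each knockdown, a share near the 16.7% of all genes higher in shPhf5a and the 18% higher in shPaf1. Hspb2, the neighbour of Cryab, has no probe set of its own and is read by a probe set annotated to both genes.

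Promoter windows show how the heat shock element is placed in these genes. RefSeq windows on GRCm38.p6, from 250 bases before to 50 after the start of transcription, matched 7 of the 10 genes and not Cryab, Hspa8 or Hsp90aa1. The pairs GAANNTTC and TTCNNGAA, each of which reads the same on both strands, were searched for as the core of the element. At least 1 pair was found in the windows of 5 genes (Hspb1, Hspb8, Hspa1a, Hspa1b and Hsph1) and in 15.1% of all 32851 windows of that length. The stretches with the pair in capitals are shown for the small heat shock gene that rose in both knockdowns and has a window, for its relative that did not, and for the Hsp70 genes described next.
Hspb8, chr5:116422845-116422924, minus strand: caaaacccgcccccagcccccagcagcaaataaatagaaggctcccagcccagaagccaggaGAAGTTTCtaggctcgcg
Hspb1, chr5:135887769-135887848, plus strand: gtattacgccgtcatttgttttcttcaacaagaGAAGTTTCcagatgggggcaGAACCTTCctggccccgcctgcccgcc
Hspa1a, chr17:34972227-34972306, minus strand: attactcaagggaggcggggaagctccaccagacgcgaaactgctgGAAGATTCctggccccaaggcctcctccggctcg
Hspa1b, chr17:34959309-34959388, minus strand: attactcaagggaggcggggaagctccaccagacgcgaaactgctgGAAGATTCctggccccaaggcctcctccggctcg
The pair of Hspb8 starts 3 bases into the transcript, those of Hspb1 start 117 and 97 bases before the start, and those of Hspa1a and Hspa1b start 104 bases before it. The Hspb8 pair and the more distant Hspb1 pair have the same letters, GAAGTTTC. A match is a description of these letters and not of binding.

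Hspa1a and Hspa1b are the stress-inducible Hsp70 genes, neighbours on chromosome 17 that encode almost the same protein. Their windows are identical at 296 of 300 bases (98.7%) and at all 80 bases shown above. Because the genes are near copies, a probe set may read both, and the split of signal between them is uncertain.

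Hspa1a had levels of 6.95, 6.82 and 6.93 in shPhf5a, of 7.96, 8.44 and 8.59 in shPaf1, and of 6.91, 6.54 and 6.84 in shControl. The shPaf1 arrays stood clear of all others, and the shPhf5a arrays overlapped the control. The means of Hspa1a were 6.90 in shPhf5a and 6.77 in shControl, near the median level of all genes (6.70), where a fall may be compressed. Hspa1a rose by 1.56 in shPaf1 (SE 0.15, 2.95-fold, limma adjusted p = 3.42e-05) and differed by 0.13 in shPhf5a (SE 0.15, adjusted p = 0.564, 95% interval from -0.21 to 0.47). It was 1.43 log2 units lower in shPhf5a than in shPaf1 (-1.43, SE 0.15, limma adjusted p = 0.000104).

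Hspa1b had levels of 7.49, 8.05 and 7.64 in shPhf5a, of 9.61, 9.74 and 9.68 in shPaf1, and of 8.68, 8.54 and 8.52 in shControl. The 3 groups did not overlap, with shPhf5a below and shPaf1 above the control. Hspa1b fell by 0.85 in shPhf5a (SE 0.12, 1.81-fold, limma adjusted p = 0.000448) and rose by 1.09 in shPaf1 (SE 0.12, 2.13-fold, adjusted p = 9.14e-05). Of the 10 genes it alone was called in opposite directions, and the difference between the knockdowns was -1.95 (SE 0.12, 3.86-fold, limma adjusted p = 6.85e-06). The shPhf5a array nearest the control was replicate 2, which was also the nearest for Cryab and Hspb8 and for 72.1% of all genes called in shPhf5a. A probe set annotated to both Hspa1a and Hspa1b had means of 5.37 in shPhf5a, 5.57 in shPaf1 and 5.36 in shControl, near the low end of the scale, and was called in no comparison.

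Dnajb1, the Hsp40 protein that stimulates the ATPase of cytosolic Hsp70 and a heat-inducible gene itself, had levels of 9.72, 9.86 and 9.66 in shPhf5a, of 10.10, 10.07 and 10.04 in shPaf1, and of 9.71, 9.64 and 9.69 in shControl. Only the shPaf1 arrays left the control range on every array. Dnajb1 rose by 0.39 in shPaf1 (SE 0.06, 1.31-fold, limma adjusted p = 0.000494). In shPhf5a it differed by 0.07 (SE 0.06, adjusted p = 0.411; 0.15 and adjusted p = 0.045 after quantile normalization), and between the knockdowns by -0.32 (SE 0.06, adjusted p = 0.00238). Its windows held neither pair.

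Hsph1, the heat-inducible Hsp110 protein, had levels of 9.87, 10.32 and 10.08 in shPhf5a, of 10.34, 10.29 and 10.55 in shPaf1, and of 10.39, 10.31 and 10.30 in shControl. Replicates 1 and 3 of shPhf5a lay below the control range and replicate 2 within it. The differences were -0.25 in shPhf5a (SE 0.11, limma adjusted p = 0.106), 0.06 in shPaf1 (SE 0.11, adjusted p = 0.762) and -0.30 between the knockdowns (SE 0.11, adjusted p = 0.0633). With replicate 2 of shPhf5a left out, the difference from the control was -0.36 and that from shPaf1 was -0.41, and both passed (adjusted p = 0.0105 and 0.00631). The windows of Hsph1 held TTCNNGAA followed after 2 bases by a further TTC, a run of 3 units that on either strand occurs in 0.603% of all windows.

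Hsp90aa1, the inducible cytosolic Hsp90, had levels of 9.67, 9.68 and 9.67 in shPhf5a, of 9.56, 9.58 and 9.67 in shPaf1, and of 9.67, 9.69 and 9.71 in shControl. The shPhf5a and control values lay side by side, shPaf1 replicates 1 and 2 lay slightly below them, and no difference passed the test. Centring each array on its median gave -0.14 in shPaf1, which passed (adjusted p = 0.0343). The 95% intervals ran from -0.12 to 0.09 in shPhf5a and from -0.19 to 0.02 in shPaf1.

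Hspa5, also called BiP, is the Hsp70 of the endoplasmic reticulum and the standard readout of its unfolded protein response. Its levels were 10.31, 10.31 and 10.31 in shPhf5a, 10.42, 10.30 and 10.35 in shPaf1, and 10.31, 10.31 and 10.30 in shControl. The groups overlapped, and the 95% intervals of the differences ran from -0.10 to 0.10 in shPhf5a and from -0.05 to 0.15 in shPaf1. Of the 7 genes with a window it alone held the endoplasmic reticulum stress element, here CCAAT and CCACG with 9 bases between them. It occurs on either strand in 0.119% of all windows and is shown in capitals, because this element is the known route by which the unfolded protein response raises the gene.
Hspa5, chr2:34771990-34772069, plus strand, GRCm38.p6: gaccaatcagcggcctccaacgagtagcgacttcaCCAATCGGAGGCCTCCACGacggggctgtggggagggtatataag

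Hspa8 encodes Hsc70, the Hsp70 that cells make without stress. The chosen probe set had levels of 12.86, 12.82 and 12.92 in shPhf5a, of 12.75, 12.63 and 12.68 in shPaf1, and of 12.89, 12.93 and 12.89 in shControl. It fell by 0.22 in shPaf1 (SE 0.05, 1.16-fold, limma adjusted p = 0.00648), with no overlap with the control arrays, and differed by -0.04 in shPhf5a (SE 0.05, adjusted p = 0.635). The difference between the knockdowns was 0.18 (SE 0.05, adjusted p = 0.0214), a call lost in 4 of 18 alternatives (adjusted p up to 0.0834), among them the fits without shPhf5a replicate 3, shPaf1 replicate 2 or shPaf1 replicate 3. Other probe sets of Hspa8, given below, showed larger differences in shPaf1 and between the knockdowns. The fall in shPaf1 missed the threshold after quantile normalization (-0.14, adjusted p = 0.058).

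**Figure D2:**
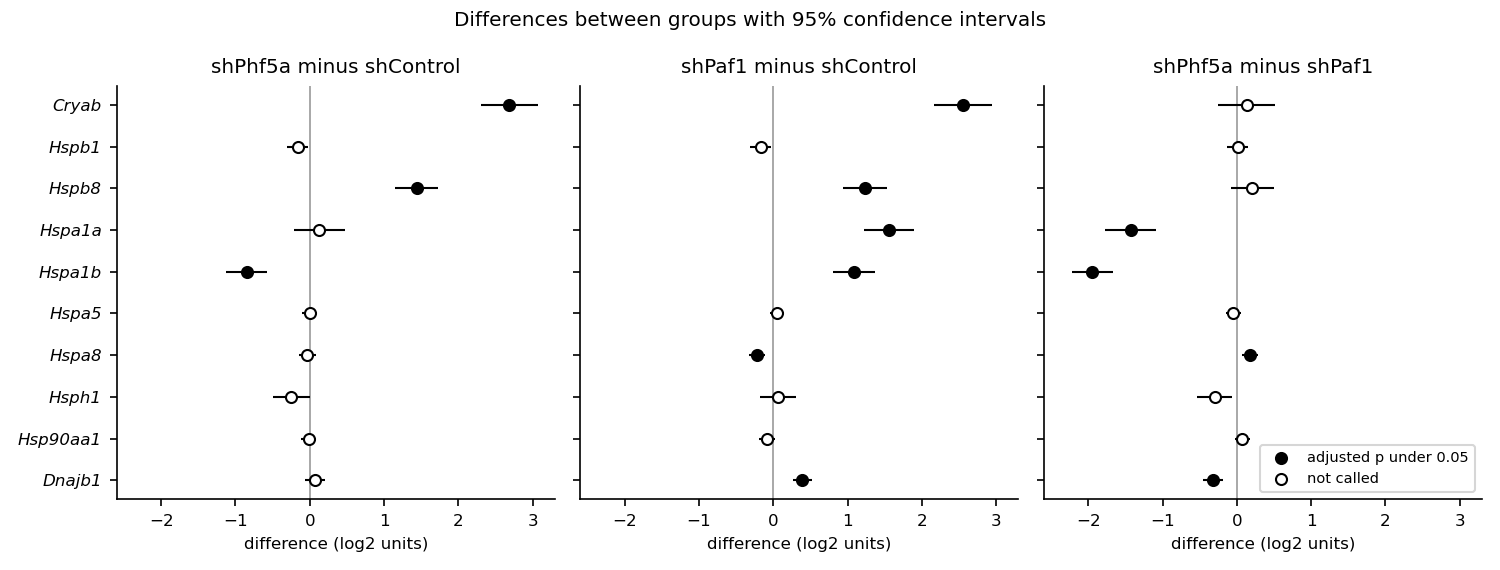
Differences of group means in log2 units (horizontal axis) with 95% confidence intervals from the limma fit, for the 10 genes in 3 comparisons; filled points passed an adjusted p under 0.05 over all genes. Cryab and Hspb8 lie right of 0 against the control in both knockdowns and near 0 between them, whereas Hspa1a and Hspa1b lie at -1.43 and -1.95 between the knockdowns.

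Other probe sets gave other sizes for Cryab, Hspb1 and Hspa8. Of 18 probe sets with the symbol of a member 10 were chosen and 8 were not, 3 of which carry a second gene. A test over all probe sets was used for them. The second Cryab probe set had levels of 8.12, 7.52 and 8.01 in shPhf5a, of 7.18, 7.06 and 6.88 in shPaf1, and of 6.62, 6.46 and 6.27 in shControl. It rose by 1.43 in shPhf5a (SE 0.16, limma adjusted p = 0.000202) and by 0.59 in shPaf1 (SE 0.16, adjusted p = 0.0193). The probe set shared by Hspb2 and Cryab, genes that overlap in the RefSeq annotation of chromosome 9, rose by 1.41 in shPhf5a (limma adjusted p = 5.81e-05) and by 0.80 in shPaf1 (adjusted p = 0.000847). Both were also higher in shPhf5a than in shPaf1 (0.84, adjusted p = 0.00444, and 0.61, adjusted p = 0.00563), a difference that the chosen probe set did not show. The direction against the control was the same on all 3 probe sets, with shPhf5a above shPaf1 on each, and the size and the call between the knockdowns differed.

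For Hspa8 the disagreement was one of size, in shPaf1 against the control and between the knockdowns. A second probe set had levels of 11.26, 11.26 and 11.34 in shPhf5a, of 10.43, 10.21 and 10.09 in shPaf1, and of 11.34, 11.34 and 11.36 in shControl, a fall of 1.11 in shPaf1 (SE 0.08, 2.15-fold, limma adjusted p = 1.18e-05). A further pair of probe sets never differed by more than 0.00785 log2 units from each other and counts as 1 signal. Both fell by 1.24 in shPaf1 (SE 0.14, adjusted p = 0.000179 and 0.00017). The probe set shared with Snord14e, a small nucleolar RNA gene, fell by 0.48 (SE 0.13, limma adjusted p = 0.02). In shPhf5a these 4 differed by -0.06 to 0.06 and were not called. Between the knockdowns all 4 were higher in shPhf5a than in shPaf1. The differences were 1.05, 1.29 and 1.30 on those of Hspa8 alone (limma adjusted p = 2.74e-05, 0.000235 and 0.000222). On the shared one the difference was 0.47 (adjusted p = 0.0284). The chosen probe set therefore gave the smallest fall of the 5. The mean over the probe sets of Hspa8 alone gave -0.95 in shPaf1 and 0.96 between the knockdowns (limma adjusted p = 7.43e-05 for the latter). The second Hspb1 probe set fell by 0.39 in shPhf5a (limma adjusted p = 0.00476) and by 0.64 in shPaf1 (adjusted p = 0.000271), where the chosen one missed the threshold.

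**Figure D3:**
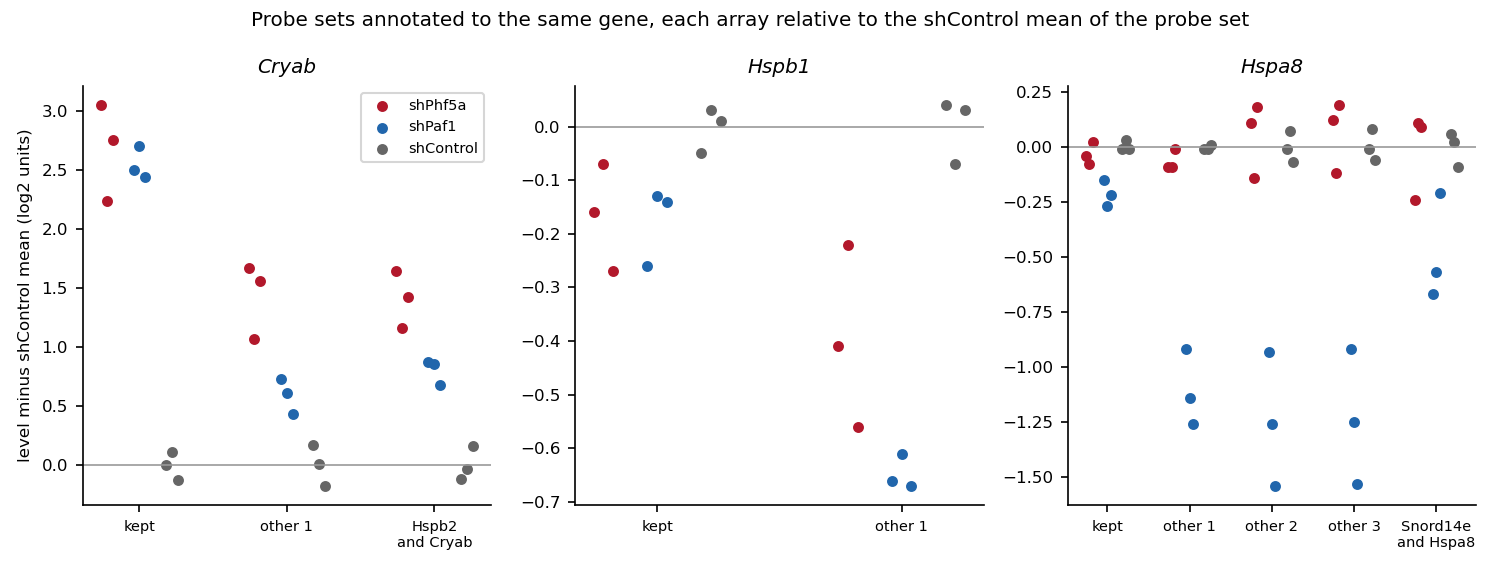
Level of each array minus the shControl mean of the same probe set, in log2 units (vertical axis, a different span in each panel), for the probe sets annotated to Cryab, Hspb1 and Hspa8; kept marks the probe set used in the main comparison. The shPaf1 arrays lie 0.15 to 0.27 below the control mean on the kept Hspa8 probe set, and the fall is 1.11 and 1.24 on the others of Hspa8 alone.

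Partners of these chaperones were taken from lists by family and not by how they moved, although the lists were drawn up with earlier results of these data known. Co-chaperones that serve Hsp90 or hand clients over from Hsp70 were mostly lower. Of 12 measured, 12 were lower in shPhf5a (20.7% of all genes), and in shPaf1 8 were lower (17.8%) and 4 were not called. All 12 reached the median level of all genes in at least 1 group. The fit of only the 50% of genes above that level called 4089 lower in shPhf5a and 3616 in shPaf1. The median difference was -0.52 in shPhf5a (-0.03 over all genes) and -0.36 in shPaf1 (-0.01 over all genes). Between the knockdowns 7 were lower and 1 higher in shPhf5a than in shPaf1 (16.3% and 12.7% of all genes). Sugt1, which links Hsp90 to kinetochore assembly, fell by 1.22 in shPhf5a and by 0.71 in shPaf1. Ptges3, the p23 protein that stabilises the closed state of Hsp90, fell by 0.70 in shPhf5a and by 1.67 in shPaf1. Chordc1, an Hsp90 co-chaperone, fell by 0.87 in shPhf5a and by 0.45 in shPaf1, and the immunophilin Fkbp5 fell by 0.73 in shPhf5a and by 0.45 in shPaf1. Its relative Fkbp4 fell by 0.68 in shPhf5a and was at -0.13 in shPaf1 (limma adjusted p = 0.276). Ahsa1, the activator of the Hsp90 ATPase, fell by 0.47 in shPhf5a and by 0.55 in shPaf1, and the cyclophilin Ppid fell by 0.45 in shPhf5a and by 0.57 in shPaf1.

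Chaperonins, with the prefoldins that pass actin and tubulin to them, were also mostly lower. Of 15 measured, 13 were lower and 2 were not called in each knockdown, with a median of -0.45 in both. Over all genes 20.7% were lower in shPhf5a (median -0.03) and 17.8% in shPaf1 (median -0.01). The prefoldin subunits Pfdn5 and Vbp1 fell by 0.98 and 0.69 in shPhf5a and by 0.92 and 0.81 in shPaf1. Pfdn6 fell by 0.58 in shPhf5a and by 0.45 in shPaf1, and Cct6a, a subunit of the cytosolic chaperonin, fell by 0.57 in shPhf5a and by 0.62 in shPaf1. Hspe1, the mitochondrial Hsp10, fell by 0.63 in shPhf5a and by 0.64 in shPaf1. Between the knockdowns 1 of the 15 was called, where 29% of all genes were called in either direction and 12.7% were higher in shPhf5a. It was Cct4, higher in shPhf5a than in shPaf1 by 0.20 (limma adjusted p = 0.0261) and named because it was the sole call.

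Nucleotide exchange factors of Hsp70 were lower in 7 of 10 and higher in 1 in shPhf5a, where 20.7% of all genes were lower and 16.7% higher. In shPaf1 5 were lower and 1 was higher, where 17.8% of all genes were lower and 18% higher. The medians were -0.23 in shPhf5a and -0.19 in shPaf1. The gene that rose in each was Bag3, the heat-inducible partner of Hspb8, at 0.26 in shPhf5a (SE 0.09, limma adjusted p = 0.0388) and 0.50 in shPaf1 (SE 0.09, adjusted p = 0.00112). Grpel1, the exchange factor of mitochondrial Hsp70, fell by 1.04 in shPhf5a and by 0.84 in shPaf1, and Bag2 fell by 0.51 in shPhf5a and by 0.30 in shPaf1. Hspbp1 fell by 0.50 in shPhf5a, and Sil1, which serves Hspa5, fell by 0.27 in shPaf1. The range of the list's mean level was 9.06 to 9.24 in shPhf5a, 9.30 to 9.32 in shPaf1 and 9.41 to 9.47 in shControl.

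Hsp40 genes of the DnaJ classes A and B other than Dnajb1 were higher in 7 of 14 in shPhf5a (16.7% of all genes). The other 7 were not called, and the median was 0.15. Hsp40 genes of the DnaJ class C were not in this list. Dnajb3 rose by 0.80 in shPhf5a and by 0.24 in shPaf1, Dnajb4 by 0.58 in shPhf5a and by 0.31 in shPaf1, and Dnajb5 by 0.46 in shPhf5a and by 0.41 in shPaf1. The mean of Dnajb3 lay below the median level of all genes (6.70) in every group. That of Dnajb4 did so in shPaf1 (6.65) and shControl (6.34). Dnajb2 rose by 0.31 in shPhf5a and was at -0.01 in shPaf1. In shPaf1 5 were higher and 3 lower (18% and 17.8% of all genes), with a median of 0.04. Dnajb9, an endoplasmic reticulum Hsp40 that restrains the sensor Ern1, rose by 0.81 in shPaf1, whereas Dnaja3, a mitochondrial Hsp40, fell by 0.76, Dnaja2 by 0.57 and Dnajb13 by 0.48. Dnajb13 was at 0.22 in shPhf5a (limma adjusted p = 0.0141), so that it was called in opposite directions. Its means were low, with 6.83 in shPhf5a, and lay below the median level of all genes in shPaf1 (6.14) and shControl (6.62).

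The remaining families had calls in both directions. Of 7 further Hsp70 genes 1 was higher and 2 lower in shPhf5a, and 1 was higher and 1 lower in shPaf1, beside 37.4% and 35.8% of all genes called. Hspa14 fell by 0.51 in shPhf5a and by 0.35 in shPaf1, Hspa13 fell by 0.22 in shPhf5a, and Hspa9, the mitochondrial Hsp70, rose by 0.15 in shPhf5a. Hspa2, known for its role in spermatogenesis, rose by 0.44 in shPaf1. Among the relatives of Hsph1, Hspa4 fell by 0.21 in shPhf5a and by 0.31 in shPaf1, and Hspa4l rose by 0.58 in shPaf1. Trap1, the mitochondrial Hsp90, fell by 0.65 in shPhf5a and by 0.53 in shPaf1. Hsp90b1 of the endoplasmic reticulum was not called in either (-0.10 in shPhf5a and -0.01 in shPaf1).

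**Figure D4:**
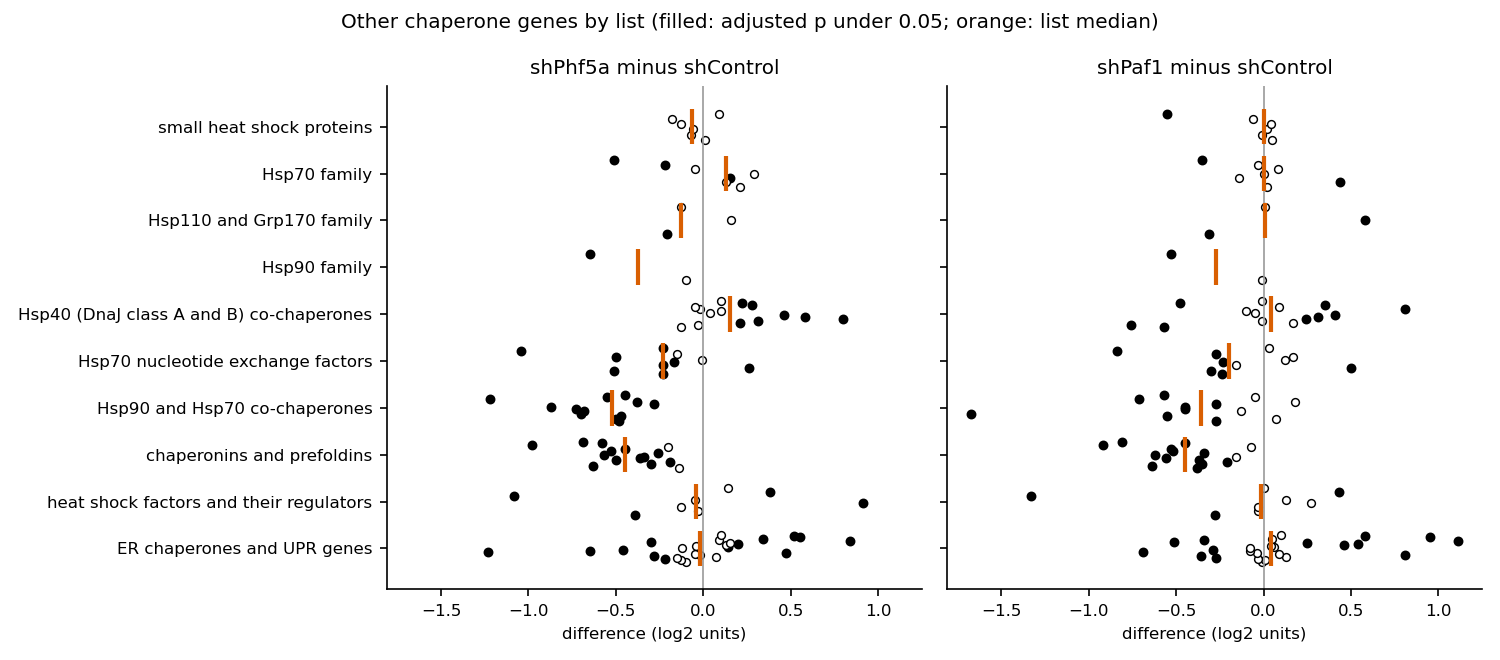
Difference from shControl in log2 units (horizontal axis) of measured genes other than the 10 members, by list, in shPhf5a and shPaf1. The list of genes known to be raised by heat is not drawn, and a gene in several lists is drawn in each. Filled points passed an adjusted p under 0.05 over all genes, and orange lines are list medians. ER and UPR stand for the endoplasmic reticulum and its unfolded protein response. All filled points of the Hsp90 and Hsp70 co-chaperones and of the chaperonins lie left of 0 in both panels.

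Genes known to be raised by heat were mixed in both knockdowns. Of 11 measured that were not members, 4 were higher and 5 lower in shPhf5a, where 16.7% of all genes were higher and 20.7% lower. In shPaf1 4 were higher and 6 lower, where 18% of all genes were higher and 17.8% lower. The medians were -0.14 in shPhf5a and -0.27 in shPaf1. The list shares genes with those above, so that its counts are not independent of theirs. Among its called genes of largest change, Chordc1 (-0.87) and Fkbp4 (-0.68) in shPhf5a were also counted as co-chaperones. So was Ahsa1 (-0.55) in shPaf1, where Hspe1 (-0.64) was also counted among the chaperonins and Hspa4l (0.58) among the relatives of Hsph1. Serpinh1, the collagen chaperone Hsp47, rose by 0.83 in shPhf5a (SE 0.05, limma adjusted p = 4.65e-06) and by 0.96 in shPaf1 (SE 0.05, adjusted p = 1.43e-06). Hmox1, a heme-degrading enzyme, rose by 0.76 in shPhf5a and fell by 0.38 in shPaf1, and the difference between the knockdowns passed (1.14, SE 0.11, limma adjusted p = 5.99e-05). Of 8 measured heat shock factors and their regulators 2 were higher and 2 lower in shPhf5a, and 1 was higher and 2 lower in shPaf1. The same shares of all genes stand beside these counts. Hsf2 fell by 0.39 in shPhf5a and by 0.28 in shPaf1, and its binding partner Hsf2bp fell by 1.08 in shPhf5a and by 1.33 in shPaf1. Hdac6, a deacetylase that acts on Hsp90, rose by 0.38 in shPhf5a and by 0.43 in shPaf1. Hsf5 rose by 0.91 in shPhf5a, from a control mean of 6.17 that lay below the median level of all genes. Hsf1 had no probe set of its own and was not analysed here.

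Genes of the endoplasmic reticulum moved in both directions around Hspa5. Of 25 measured besides Hspa5, 7 were higher and 6 lower in each knockdown. The shares of all genes were 16.7% higher and 20.7% lower in shPhf5a, and 18% higher and 17.8% lower in shPaf1. Ddit3, the transcription factor CHOP, rose by 0.84 in shPhf5a and by 1.11 in shPaf1, and the sensor kinase Ern1 rose by 0.55 in shPhf5a and by 0.95 in shPaf1. The chaperone cofactor Sdf2l1 fell by 1.23 in shPhf5a and by 0.69 in shPaf1. Creld2 fell by 0.65 in shPhf5a and was at -0.08 in shPaf1 (limma adjusted p = 0.769). The median of the list was -0.02 in shPhf5a and 0.04 in shPaf1.

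Because Cryab is also a gene of differentiated tissues, markers of other cell types were read beside it. Beside each of these marker lists, 16.7% of all genes were higher and 20.7% lower in shPhf5a, and 18% higher and 17.8% lower in shPaf1. Of 10 trophectoderm markers 9 were higher and 0 lower in shPhf5a, and 6 were higher and 1 lower in shPaf1. Their mean level was 8.08 to 8.37 in shPhf5a, 7.99 to 8.08 in shPaf1 and 7.10 to 7.19 in shControl. Within shPhf5a it was lowest in replicate 2, as Cryab and Hspb8 were, but that array lay nearest the control for 72.1% of all genes called in shPhf5a. Of 12 fibroblast markers 1 was higher and 2 lower in shPhf5a, and 5 were higher and 0 lower in shPaf1, with mean levels of 6.23 to 6.31 in shPhf5a, 6.79 to 6.88 in shPaf1 and 6.35 to 6.38 in shControl. The median level of all genes was not reached in any group by 1 of the trophectoderm, 6 of the fibroblast, 5 of the muscle and 7 of the lens and glial markers. Of 10 striated muscle markers 3 were higher in shPhf5a and 1 lower in shPaf1, with mean levels of 6.54 to 6.68 in shPhf5a, 6.46 to 6.51 in shPaf1 and 6.52 to 6.57 in shControl. Of 9 lens and glial markers all were not called in shPhf5a, and 1 was higher and 1 lower in shPaf1. The lens crystallin Cryaa was at 0.01 in shPhf5a (limma adjusted p = 0.847) and at 0.05 in shPaf1 (adjusted p = 0.479). The part of other cell types in the rise of Cryab and Hspb8 was not tested.

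Over the 9 arrays, the genes whose deviations from their own control mean lay nearest to those of Cryab were Snord13, Sp110 and Pramel19, with root mean square distances of 0.204, 0.246 and 0.279 log2 units. Sp110 differed from the control by 2.89 in shPhf5a and by 2.87 in shPaf1. Nearest to Hspb8 were Pramel6, Mxd4 and Csrp1 at distances of 0.110 to 0.113, and nearest to Hspb1 were Btbd3, Olfr982 and Pfkp at 0.0364 to 0.0418. The 9 arrays fall into 3 groups, so that any gene with like group differences comes near, and the distances are a description only.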

How the data were processed

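Per the labels' protocols, 125 ng of total RNA per sample was converted with whole-transcript kits and hybridized to Affymetrix arrays. The authors deposited 1 value per probe set and array, used here as log2 expression. No source used here names the software, background correction, normalization or log base. The log2 scale was inferred from values of 4.35 to 13.7 and array medians that nearly match, and fold changes assume it. Unspecific hybridization can compress the changes of dim probe sets. Scanner files were not used here, and batches were not tested.

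Of 33793 probe sets 23521 had 1 symbol in the platform annotation, 1814 had several and 8458 were not listed, which left 22180 genes. The members and lists were chosen with earlier results of these data known. Named genes were the members, both targets, up to 4 called genes with the largest change per list and knockdown, and the 3 genes nearest to each small heat shock member, and exceptions are marked. limma 3.58.1 in R 4.3.3 (lmFit, eBayes) was fitted to all 9 arrays with 1 mean per group. P-values were adjusted by Benjamini-Hochberg over all genes, with a call at 0.05. Alternatives changed the normalization (quantile, centring), the genes tested, the choice of probe set, the variance model, array weights, the arrays in the fit and a replicate block, or left out each array. Tested on simulated shPhf5a and shControl arrays (22180 genes), the fit called 76.1% of genes changed by 0.5 log2 units, 97% at 1 and 100% at 2, with 7 false calls. Only 67, 67 and 66 genes were changed, all upward, with noise independent between genes. These rates need not hold for the data, where 37.4% of genes were called in shPhf5a.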

Additional observations from a re-analysis of the deposited data

Results flagged for a closer look

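Hspa1b was called in opposite directions in the knockdowns, lower in shPhf5a (-0.85) and higher in shPaf1 (1.09) than in shControl, and the difference itself passed the test (shPhf5a minus shPaf1, -1.95 log2 units, SE 0.12, limma adjusted p = 6.85e-06). No array of the 3 groups overlapped with another group, and over 18 alternatives the difference lay between -2.11 and -1.83.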

How the results depend on the processing

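The counts of called genes stayed within 1.5 times the reported ones in all alternatives, but some alternatives tested other numbers of genes. In shPhf5a against shControl the main fit called 8306 of 22180 genes. The fit of only the 50% of genes above the median level called 7193, a larger share, and that of all 33793 probe sets called 10696. Leaving out 1 array gave 7115 to 8817 genes in shPhf5a against shControl, 6799 to 8646 in shPaf1 against shControl and 5164 to 7284 in shPhf5a against shPaf1. Of the 10 members 3 were called in shPhf5a against shControl, 5 with array weights and 3 to 5 when an array was left out, with 5 without shPhf5a replicate 2. In shPaf1 against shControl 6 were called (5 to 8 over all alternatives), and in shPhf5a against shPaf1 4 were called, 3 to 7 when an array was left out, with 7 without shPhf5a replicate 2. The causes were not tested. Cryab, Hspb8 and Hspa1b in shPhf5a, Cryab, Hspb8, Hspa1a, Hspa1b and Dnajb1 in shPaf1, and Hspa1a, Hspa1b and Dnajb1 between the knockdowns kept their calls in all 18 alternatives.

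Sign changes met only differences that had not been called. In shPhf5a against shControl, Hspa8 was at 0.02 and Hsp90aa1 at 0.06 after quantile normalization, Hspa8 at 0.01 with the mean over probe sets, and Hspa5 at -0.03 after centring. In shPaf1 against shControl, centring gave -0.01 for Hspa5 and 0.00 for Hsph1, and Hsph1 ran from -0.02 to 0.11 when an array was left out. In shPhf5a against shPaf1, Hspb1 was at -0.05 with array weights, and leaving out an array gave -0.04 to 0.06 for Hspb1 and -0.05 to 0.35 for Cryab.

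Correlations of the deviations of same-numbered arrays ran from -0.058 to 0.106, so that the numbers were not taken to pair the arrays. A fit with the replicate number as a block called 8210, 7858 and 6255 genes in shPhf5a against shControl, shPaf1 against shControl and shPhf5a against shPaf1, and 3, 6 and 4 members.

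Precision is limited by 3 arrays per group, 1 hairpin per target and a scale whose log base was inferred. Detection above background was not analysed here, so that low values such as those of the shared Hspa1a and Hspa1b probe set carry little information.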
